A study of Rattus norvegicus with 6 samples.

Results

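Carbonic anhydrases and aquaporins of the vestibular sensory epithelium were described through 8 genes, selected by symbol: Car2, Car8, Car12, Car13, Car14, Aqp1, Aqp4 and Aqp5. All 8 were found among the 32883 genes of the count table. The comparison was between 3 control rats and 3 rats given IDPN (3,3'-iminodipropionitrile, a nitrile toxic to the hair cells of the inner ear), and it asked which transcripts of the epithelium change under subchronic exposure. All animals were male Long-Evans rats, aged 8 to 9 weeks on reception. The control animals drank plain water, and the exposed animals (IDPN-4wk) drank water containing 20 mM IDPN over 4 weeks. A library holds the 2 utricles and 6 cristae of a single rat, so hair cells, supporting cells and the other cells of the dissected tissue were measured together.

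Carbonic anhydrases interconvert carbon dioxide and bicarbonate. Car2 and Car13 are cytosolic enzymes, Car12 and Car14 are anchored in the plasma membrane with the catalytic domain facing outwards, and Car8 is a relative without catalytic activity that binds the inositol trisphosphate receptor ITPR1. Aquaporins are membrane water channels. In the inner ear, bicarbonate and water transport set the composition of the endolymph, and bicarbonate is also needed for the calcium carbonate of the otoconia. AQP4 is known from supporting cells and AQP1 from connective tissue, endothelium and red blood cells, whereas AQP5 is best known from glands.

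Library depth was between 13358678 and 18561991 counts, and 3 counts, the limit that a count of 0 allows, were between 0.155 and 0.216 CPM (counts scaled to a common library size with TMM). Of the genes in the table, 14352 passed the filter on low counts and were tested. Among them, 9.71% met the 2 criteria for a call, which were Padj (the adjusted p) below 0.05 together with a change of more than 1.5-fold, with 6.62% lower and 3.09% higher in IDPN-4wk libraries. Control replicate 1 was the control with the highest Aqp1 and Car14 and the lowest Car2, and the values that rest on it are given with and without it. The markers fixed for hair cells and supporting cells had counts in all libraries.

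Of the 8 genes, 7 were tested and 2 were downregulated, Car12 and Car8 (9.71% of all tested genes were called). In the same 2 genes each IDPN-4wk library was lower than each control library, and 37.8% of all tested genes had such a separation in either direction. None of the 7 was upregulated by DESeq2, or by edgeR with all libraries, TMM and the filter on low counts. In that edgeR fit, 4 of the 7 had an unadjusted p under 0.05 (33.1% of all tested genes). The median log2-Fold change of the 7 was -0.42, beside 0.02 over all tested genes. Aqp5 did not pass the filter.

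**Figure D1:**
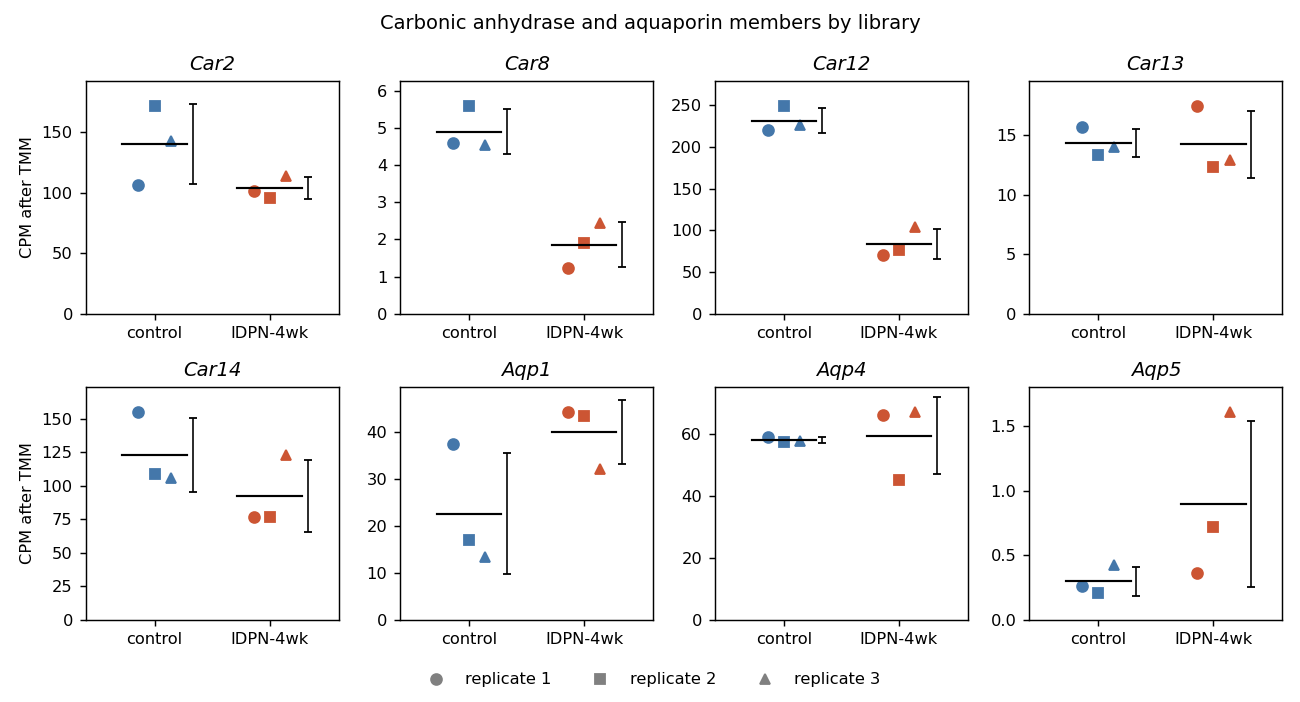
Level of each of the 8 genes (y axis, CPM after TMM, from 0) in the control and IDPN-4wk libraries. Points are libraries, with a marker shape for each replicate number, horizontal lines are means and bars are SD (n = 3). In Car12 and Car8 every IDPN-4wk library lies under every control library, while in the other genes the groups overlap.

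The sequence upstream of Car12 and of Aqp1 is shown because these had the largest changes in either direction among the tested members for which the RefSeq promoter table had an entry. Of the 8 genes, 5 had an entry (Car12, Car14, Aqp1, Aqp4 and Aqp5), and Car2, Car8 and Car13 did not. The 250 bases before the annotated start are printed on build GRCr8, whereas the counts were made on Rnor6.0. Both genes are on the plus strand, Car12 at chr8:76169565-76169814 and Aqp1 at chr4:85812534-85812783. Capitals mark GC boxes (GGGCGG, on either strand) and TATA boxes (TATAAA, on either strand).
Car12: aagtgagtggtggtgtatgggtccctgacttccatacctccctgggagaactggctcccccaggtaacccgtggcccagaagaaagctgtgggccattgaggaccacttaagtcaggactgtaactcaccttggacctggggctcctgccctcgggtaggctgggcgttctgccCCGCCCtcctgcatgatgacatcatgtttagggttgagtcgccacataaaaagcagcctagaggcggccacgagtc
Aqp1: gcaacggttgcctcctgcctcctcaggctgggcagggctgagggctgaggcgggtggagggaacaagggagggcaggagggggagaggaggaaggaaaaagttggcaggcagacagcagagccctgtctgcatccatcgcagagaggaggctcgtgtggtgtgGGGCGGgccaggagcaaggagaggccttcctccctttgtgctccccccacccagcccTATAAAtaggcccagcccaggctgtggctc

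The GC box of Car12 starts 76 bases before the annotated start and that of Aqp1 87 bases before it. A GC box is found in 30.5% of the 33469 promoter windows of the same length. The TATA box of Aqp1 starts 30 bases before the start, and 12.9% of all windows hold this motif. Neither window held an E-box (CANNTG, in 65.5% of all windows) or the core of the hypoxia response element (ACGTG or its reverse complement, in 16.6%). Of the other 3 genes with an entry, Car14 held 2 E-boxes, Aqp4 held 5 and Aqp5 held 2, and E-boxes with the letters CACGTG overlap the hypoxia response core. These matches describe the letters of the windows only.

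Among the membrane-anchored enzymes, Car12 (ENSRNOG00000017766) was at 220, 249 and 226 CPM in the control libraries and at 70.7, 76.9 and 105 CPM in the IDPN-4wk libraries. The lowest control was thus more than 100 CPM above the highest exposed library. Its level fell from 232 ± 15.5 CPM to 84.0 ± 18.0 CPM (SD, n = 3 each), with a log2-Fold change of -1.46 (SE 0.13, Padj 4.75e-05 by edgeR), which is 36.2% of control. Its unadjusted 95% interval was from -1.75 to -1.18. Car12 ranked 73 by p among all tested genes. The study named Car12 on these same libraries, so its direction is not independent evidence. Car12 was called in all 14 alternative fits, including the 6 fits that each left out a library, where its log2-Fold change was from -1.66 to -1.36.

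Car14 (ENSRNOG00000023162), the second membrane-anchored enzyme, was at 155, 109 and 106 CPM in control and at 76.9, 76.4 and 123 CPM in IDPN-4wk libraries. Control replicate 1 was high within its group and IDPN-4wk replicate 3 was high within the other, and that exposed library lay above 2 of the controls. The log2-Fold change of -0.42 (SE 0.19, Padj 0.151 by edgeR) did not pass the test. It was -0.70 (Padj 0.00951 by edgeR) without IDPN-4wk replicate 3, which passed both thresholds, and -0.22 (Padj 0.455 by edgeR) without control replicate 1. The value for Car14 therefore rested on single libraries in both groups.

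The cytosolic enzyme Car2 (ENSRNOG00000009629) was at 106, 172 and 143 CPM in control and at 102, 95.8 and 114 CPM in IDPN-4wk libraries. The groups overlapped through control replicate 1, which was lower than IDPN-4wk replicate 3. The log2-Fold change was -0.43 (SE 0.15, Padj 0.0599 by edgeR), with an unadjusted 95% interval from -0.75 to -0.11. Without control replicate 1 it was -0.60 (Padj 0.00416 by edgeR), just past the fold change threshold, and without control replicate 2 it was -0.26 (Padj 0.216 by edgeR). DESeq2 gave -0.44 with a DESeq2 Padj of 0.0135, under the fold change threshold.

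Car13 (ENSRNOG00000021323), the other cytosolic member, was at 15.7, 13.3 and 14.01 CPM in control and at 17.5, 12.3 and 12.9 CPM in IDPN-4wk libraries. IDPN-4wk replicate 1 was the highest and replicate 2 the lowest of all 6 libraries, so the exposed group spanned the controls. The log2-Fold change was -0.02 (SE 0.16, Padj 0.958 by edgeR), with an unadjusted 95% interval from -0.37 to 0.34 that leaves out a change as large as the threshold in either direction. With library size alone it was 0.09, beside a median of all genes of 0.13 in place of 0.02. Car2 and Car13 lie close together in the rat genome, with 2 protein-coding genes between them, Car3 and Car1.

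The catalytically inactive Car8 (ENSRNOG00000005669) was the rarest tested member by counts, with 71, 80 and 64 counts in control and 17, 37 and 38 counts in IDPN-4wk libraries. On the CPM scale these were 4.58, 5.59 and 4.53 against 1.22, 1.91 and 2.45, so each exposed library was lower than each control. The level fell from 4.90 ± 0.598 to 1.86 ± 0.614 CPM (SD, n = 3 each), with a log2-Fold change of -1.39 (SE 0.30, Padj 0.00926 by edgeR), which is 38.2% of control. The unadjusted 95% interval from -2.05 to -0.72 was wider than that of Car12. Car8 was called in all 6 fits that left out a library, with log2-Fold changes from -1.63 to -1.18. It was not called by glmTreat (Padj 0.0899), which tests against the fold change threshold itself. The 3 inositol trisphosphate receptors were not called by edgeR or by DESeq2, with 1 of them at an unadjusted p under 0.05. Itpr1, the receptor that CAR8 protein binds, had a log2-Fold change of -0.17 (SE 0.07, Padj 0.107 by edgeR).

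Of the water channels, Aqp1 (ENSRNOG00000011648) was at 37.4, 17.0 and 13.4 CPM in control and at 44.1, 43.4 and 32.1 CPM in IDPN-4wk libraries. Control replicate 1 was more than 20 CPM above the other 2 controls and also above IDPN-4wk replicate 3, so the groups overlapped. The log2-Fold change was 0.82 (SE 0.30), which did not pass the test (Padj 0.0840 by edgeR). Without control replicate 1 it was 1.39 (SE 0.18, Padj 0.000643 by edgeR), the only fit without a library in which Aqp1 passed both thresholds, and without control replicate 3 it was 0.55 (Padj 0.230 by edgeR). With all libraries it passed with library size alone (0.92, edgeR Padj 0.0440) and without the filter (0.81, edgeR Padj 0.0431), while DESeq2 gave a DESeq2 Padj of 0.259. The coefficient of variation among controls was 57.3% for Aqp1 and 1.53% for Aqp4.

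Aqp4 (ENSRNOG00000016043) was at 59.2, 57.6 and 57.8 CPM in control and at 66.2, 45.2 and 67.1 CPM in IDPN-4wk libraries. The controls were nearly equal, and the exposed libraries lay on both sides of them. The log2-Fold change was 0.03 (SE 0.13, Padj 0.902 by edgeR), with an unadjusted 95% interval from -0.26 to 0.32. Changes in either direction as large as the fold change threshold lie outside that interval. The coefficient of variation was 20.8% among the IDPN-4wk libraries.

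Aqp5 (ENSRNOG00000051970) had 4, 3 and 6 counts in control and 5, 14 and 25 counts in IDPN-4wk libraries. IDPN-4wk replicate 3 held 25 of the 57 counts, and IDPN-4wk replicate 1 was within the control range after scaling. In a fit without the filter its log2-Fold change was 1.57 (SE 0.73), with an edgeR Padj of 0.174, and no difference was detectable at this depth. Aqp2, Aqp5 and Aqp6 follow each other in the rat genome, and Aqp2 and Aqp6 had 1 and 0 counts in all libraries together.

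**Figure D2:**
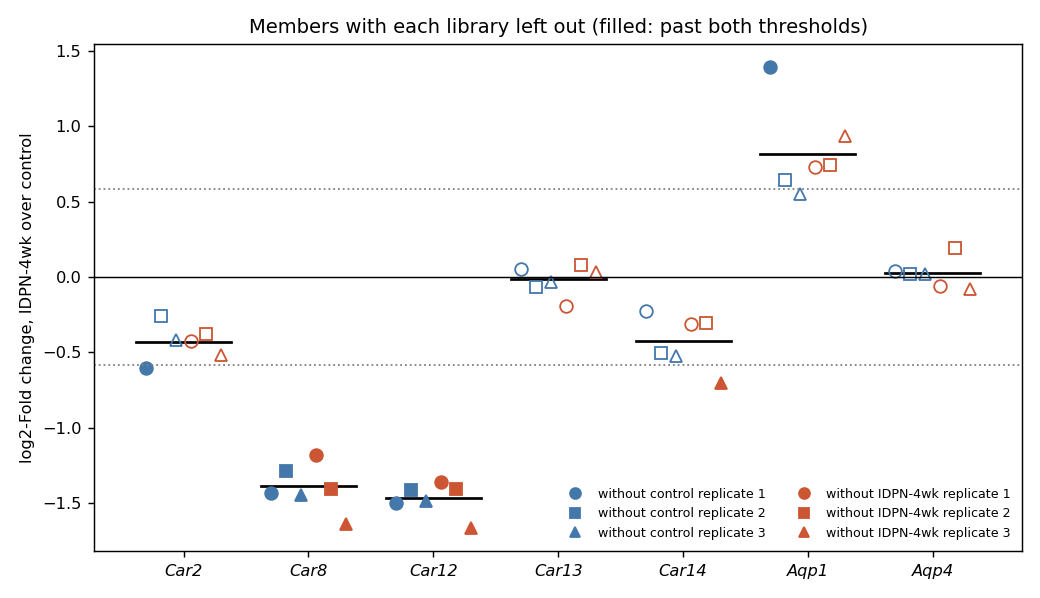
Log2-Fold change of each tested member (y axis, IDPN-4wk over control) with all libraries (black line) and with each library left out in turn (points, blue for a control and orange for an IDPN-4wk library). Filled points passed both thresholds and dotted lines mark a fold change of 1.5. Car8 and Car12 were past the thresholds in all 6 fits, while Aqp1 and Car2 passed only without control replicate 1 and Car14 only without IDPN-4wk replicate 3.

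The remaining genes of both families were measured to set the members in context. Of 11 other carbonic anhydrases in the table, 6 were tested and 0 passed the thresholds with edgeR, also 0 with DESeq2, and 2 had an unadjusted p under 0.05 (33.1% of all tested genes). Their median log2-Fold change was -0.04. Car3, a cytosolic isoform abundant in muscle and fat, was between 1486 and 2186 counts in all libraries and had a log2-Fold change of 0.16 (SE 0.10, Padj 0.275 by edgeR). Car7, a cytosolic isoform known from neurons, had -0.37 (SE 0.15, Padj 0.112 by edgeR) and the acatalytic Car11 had -0.27 (SE 0.11, Padj 0.131 by edgeR). Car4, Car5b and Car6 had log2-Fold changes of -0.08, 0.01 and 0.72, none past the test. The red blood cell isoform Car1 had at most 12 counts in a library, Car10 at most 8, Car9 at most 2 and Car15 at most 1, and Car5a had no count.

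Of 9 other aquaporins in the table, 2 were tested, and 0 passed with edgeR, 0 with DESeq2 and 0 at an unadjusted p under 0.05. These were Aqp9, with a log2-Fold change of -0.06, and Aqp11, with 0.09. Aqp8 had at most 7 counts in a library, Mip at most 2, Aqp2 and Aqp7 at most 1, and Aqp3, Aqp6 and Aqp12a had no count. All 16 carbonic anhydrases together gave 713 ± 37.8 CPM in the controls against 493 ± 53.1 CPM after IDPN (SD, n = 3 per group), 69.2% of control. The difference lay in the 5 members, above all Car12, since the 11 others summed to 99.5% of control. An exact two-sided permutation test gave p = 0.1, the smallest that 3 against 3 libraries allow. The 12 aquaporins together gave 89.3 ± 14.3 CPM in the controls against 109 ± 11.9 CPM after IDPN (SD, n = 3 per group, exact permutation p = 0.2). Transcript lengths were not used here, so levels per length were not compared between genes.

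**Figure D3:**
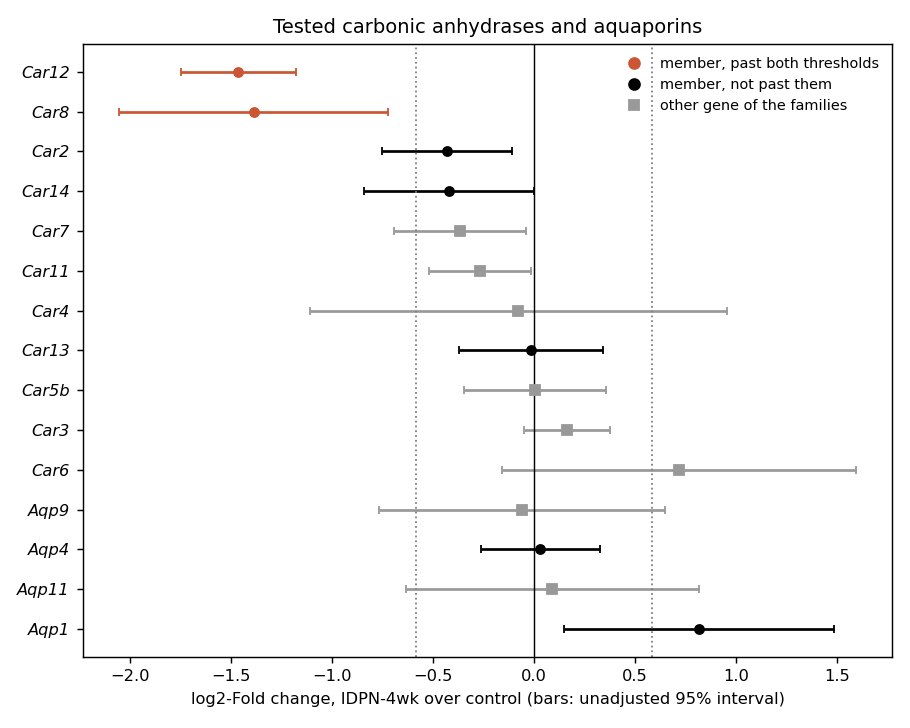
Log2-Fold change (x axis, IDPN-4wk over control, with its unadjusted 95% interval) of the 15 tested carbonic anhydrases and aquaporins. Orange circles are members past both thresholds, black circles other members and grey squares other genes of the families, and dotted lines mark a fold change of 1.5. Car12 and Car8 lie to the left of all others, and Aqp1 had the largest positive value with a wide interval.

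Transporters and pumps that work with these proteins were compared from lists. Of 12 bicarbonate transporters tested, 1 was downregulated (6.62% of all tested genes were), the sodium bicarbonate cotransporter gene Slc4a4. Counted in either direction, 1 gene of this list was called with all libraries and 2 without IDPN-4wk replicate 1. It was at 19.2, 14.9 and 13.9 CPM in control and at 6.76, 7.94 and 9.21 CPM in IDPN-4wk libraries, without overlap (log2-Fold change -1.004, SE 0.18, edgeR Padj 0.00313). The anion exchanger gene Slc4a2 had a log2-Fold change of 0.26 (Padj 0.0444 by edgeR), under the fold change threshold, and Slc4a11, the member of this list with the most counts, had -0.21 (Padj 0.144 by edgeR). Of 11 sodium-proton exchangers and their regulators, 1 was downregulated, and single calls in lists of this size are near the share of all tested genes. The gene was Slc9a9, an endosomal exchanger, at 34.5, 36.3 and 32.98 CPM in control and at 12.4, 8.25 and 13.5 CPM in IDPN-4wk libraries (log2-Fold change -1.61, SE 0.17, edgeR Padj 0.000124). Of 19 subunits and accessory proteins of the vacuolar proton pump tested, 0 passed with edgeR and 0 with DESeq2, while 7 had an unadjusted p under 0.05 (33.1% of all tested genes).

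In the list of genes that anchor AQP4 or regulate cell volume, 2 of 14 tested genes were downregulated (6.62% of all tested genes were). Dmd, encoding dystrophin, was at 84.5, 70.7 and 73.4 CPM in control and at 38.6, 35.1 and 47.5 CPM in IDPN-4wk libraries (log2-Fold change -0.92, SE 0.12, edgeR Padj 0.000442). Utrn, encoding the related utrophin, had a log2-Fold change of -0.66 (SE 0.12, Padj 0.00444 by edgeR), and fell short of the fold change threshold with library size alone (-0.55) and without IDPN-4wk replicate 2 (-0.56), where the list had 1 call. Kcnj10, a potassium channel that accompanies AQP4 in glia, had -0.43 (Padj 0.0200 by edgeR), under the fold change threshold. The level of Aqp4 itself did not pass the test.

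Markers of hair cells were measured beside Car12 and Car8 because Car12 is listed by the study as selective for these cells. In a whole tissue, fewer cells of a type and less RNA per cell cannot be told apart. All 14 hair cell markers were in the table and had counts, 6 were downregulated (6.62% of all tested genes were), and their summed level was between 2563 and 2748 CPM in control and between 1386 and 1772 CPM in IDPN-4wk libraries, 58.3% of control. Log2-Fold changes of these markers ranged from -2.56 for Slc17a8, a vesicular glutamate transporter gene, to 0.02 for Cib2, and that of Lhx3 was -1.60, so that Slc17a8 and Lhx3 were also lower than Car12 at -1.46. The study also lists hair cell genes beside Car12, chosen in part on these libraries and so not independent evidence. A further gene of that list was not matched by symbol and not used here. Of the 27 compared, 24 were downregulated (6.62% of all tested genes were). The 27 summed to between 3671 and 4081 CPM in control and between 1129 and 1860 CPM in IDPN-4wk libraries, 36.4% of control. Within the IDPN-4wk group, Car12, Car8 and the sum of the 14 markers were lowest in replicate 1 and highest in replicate 3, while the sum of the 27 genes was lowest in replicate 2.

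The ratio of each member to the summed hair cell markers was computed within each library. The log2 ratio of Car12 was -3.55, -3.46 and -3.50 in control and -4.29, -4.23 and -4.08 in IDPN-4wk libraries, a difference of -0.70. For Car8 the difference was -0.66, with IDPN-4wk ratios of -10.1, -9.56 and -9.50 under control ratios of -9.14, -8.94 and -9.14. For both genes every IDPN-4wk ratio was under every control ratio. The differences of the other members were positive, from 0.35 for Car14 to 2.18 for Aqp5, whose counts were few. For these other members except Car14, every IDPN-4wk ratio was above every control ratio. The share of all tested genes with a separated ratio was not computed. The exact two-sided permutation test gave p = 0.1, the smallest possible, for 7 of the 8 members and 0.3 for Car14 (0.114 and 0.3 adjusted over the 8). The marker sum itself was at 58.3% of control, so a gene without change gains a positive difference of this ratio. Car13 and Aqp4, with log2-Fold changes of -0.02 and 0.03, are such genes. Their p restates the fall of the marker sum and does not describe these 2 members. Of the summed markers, Otof and Myo6 held the most counts. These differences are relative to the 14 markers, and the 27 genes listed by the study summed to 36.4% of control, close to Car12 at 36.2%. Car12 and the 27 genes were listed by the study in part on these same libraries, so this closeness is not independent evidence. The part of hair cell number in the levels of Car12 and Car8 was not tested.

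Supporting cell markers were measured beside Aqp4. The 15 markers were all tested and had counts, 4 were downregulated and 1 was upregulated (6.62% and 3.09% of all tested genes), and their summed level was between 12037 and 13093 CPM in control and between 6959 and 8508 CPM in IDPN-4wk libraries, where Aqp4 had a log2-Fold change of 0.03. Otog and Gjb6 held the most counts of this list. The part of supporting cells in the level of Aqp4 was not tested.

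For Aqp1 and Car2, the cell types known to express them were compared. Red blood cell markers (8 of 12 in the table, 7 tested, 1 upregulated with edgeR and 0 with DESeq2, with the most counts in the globin genes Hbb and Hba-a2, which have near-identical copies) summed to between 155 and 185 CPM in control and between 180 and 361 CPM in IDPN-4wk libraries. The edgeR count was 3 without IDPN-4wk replicate 3 and 0 without any 1 of the other 5 libraries. Their sum was lowest in control replicate 1, the control with the highest Aqp1. Among the IDPN-4wk libraries it was highest in replicate 2 and lowest in replicate 3, where Aqp1 was also lowest. Endothelial markers (7 of 8 in the table, 1 downregulated, led by Kdr and Tie1) summed to between 451 and 603 CPM in control and between 419 and 457 CPM in IDPN-4wk libraries. The endothelial count was 0 without control replicate 2, IDPN-4wk replicate 1 or IDPN-4wk replicate 2. Stroma markers (11 of 11, 1 upregulated and 1 downregulated, led by Coch and Pdgfra) summed to between 20268 and 23619 CPM in control and between 16205 and 19106 CPM in IDPN-4wk libraries, with the highest sum in control replicate 1. Among the IDPN-4wk libraries the stroma sum was highest in replicate 3, the exposed library with the lowest Aqp1. Single calls in lists of this size are near the share of all tested genes, 6.62% downregulated and 3.09% upregulated. The part of these cells in the level of Aqp1 was not tested.

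Dark cells, which secrete endolymph, were compared through 8 markers, all with counts. Of these, 4 were downregulated (6.62% of all tested genes were), and they summed to between 1521 and 1969 CPM in control and between 990 and 1211 CPM in IDPN-4wk libraries, led by Atp1b2 and Slc12a2. As with Car2, control replicate 1 was the lowest control. Among the IDPN-4wk libraries, however, the sum was highest in replicate 2, where Car2 was lowest. The part of these cells in the level of Car2 was not tested.

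The other marker lists were melanocytes (5 of 6 in the table, 0 past the thresholds with edgeR and 0 with DESeq2, 3 at an unadjusted p under 0.05), macrophages (9 of 10, 2 upregulated and 1 downregulated), neurons (8 of 8, 1 upregulated and 4 downregulated) and skeletal muscle (9 of 12, 2 tested and 1 upregulated, Myh4). Of all tested genes, 6.62% were downregulated and 3.09% upregulated. Their summed levels went from 598 ± 77.3 to 507 ± 23.6 CPM for melanocytes, led by Pmel and Mitf, and from 158 ± 27.6 to 146 ± 37.0 CPM for macrophages, led by Csf1r and C1qb (SD, n = 3 each). For neurons, led by Nefl and Nefm, they went from 127 ± 2.72 to 69.4 ± 3.04 CPM (SD, n = 3 each). For skeletal muscle, led by Myh4 and Tnnc2, they went from 19.5 ± 3.71 to 67.5 ± 18.0 CPM (SD, n = 3 each), with Ckm, Tnni2 and Myl1 at 0 in all libraries.

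**Figure D4:**
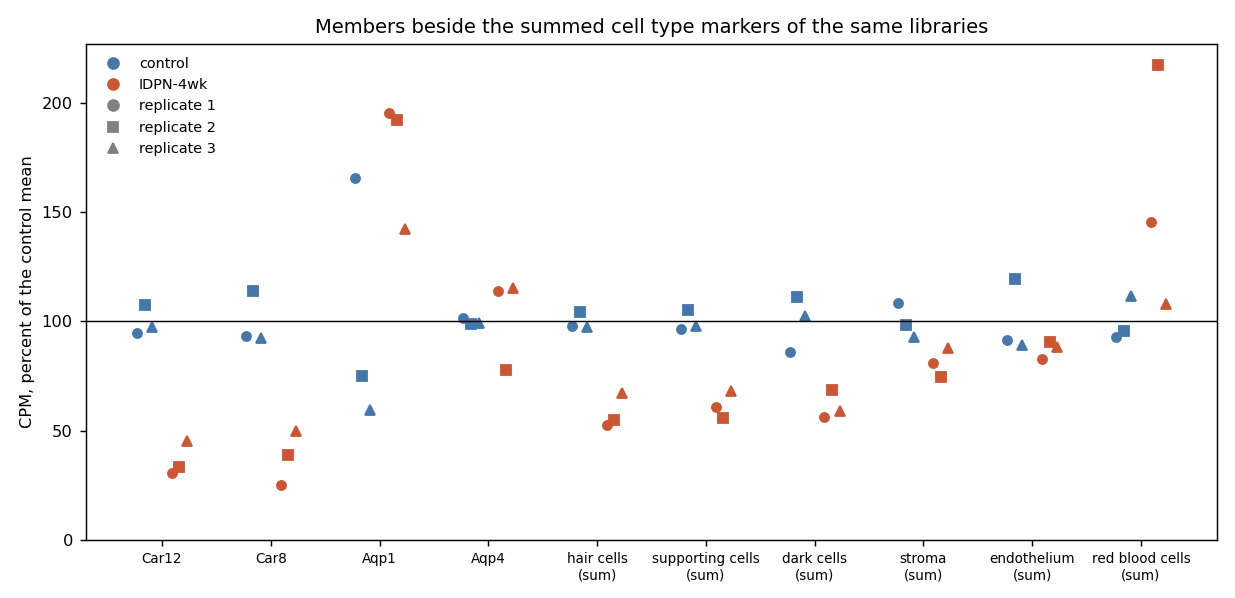
Car12, Car8, Aqp1 and Aqp4 beside the summed markers of 6 cell types in the same libraries (y axis, CPM as percent of the control mean). Points are libraries, blue for control and orange for IDPN-4wk, with a marker shape for each replicate number. Car12 and Car8 lie under the summed hair cell markers in every IDPN-4wk library, and the red blood cell sum is highest in IDPN-4wk replicate 2.

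Genes with the pattern most like each member were sought by the root mean square difference of centred log2 CPM over the 6 libraries, among 10687 to 10688 genes with a mean of at least 5 CPM. For Car12 the closest were Cdk14 (0.06) and Bdnf (0.08), a neurotrophin gene that the study lists beside it, with log2-Fold changes of -1.51 and -1.39. For Car8 they were Adamts2 (0.08) and Fam172a (0.14), and for Car2 Rgs4 and Sox18 (0.05 each). For Car13 they were Kpna3 and Apeg3 (0.05 each), for Car14 Slx4ip and Pdzd2 (0.09 each) and for Aqp4 F2r (0.03) and Eogt (0.05). Aqp1 had the least similar neighbours, Steap4 (0.16) and Mical2 (0.23), both with positive log2-Fold changes of 1.11 and 0.77.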

How the data were processed

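SMART-seq2 libraries, which do not keep the strand, were made from 6 to 11 ng of total RNA per rat. The authors mapped reads with STAR 2.5.3a to Rnor6.0 and quantified them with RSEM (1.3.0 per the submitters' processing notes). The deposited values are expected counts per gene, all 197298 of them whole, so rounding changed 0. No member had counts identical to those of another gene. Groups came from the treatment label. Replicate numbers were assigned in library order and do not pair rats between the groups. The labels give 1 batch. The animal codes share a prefix among the exposed rats, which cannot be told apart from treatment.

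Low genes were removed by filterByExpr (at least 10 counts, total of 15). edgeR 4.0.16 in R 4.3.3 then gave TMM factors and the quasi-likelihood test, adjusted after Benjamini-Hochberg over 14352 genes, with the SE from the quasi F statistic. Genes with Padj under 0.05 and a change over 1.5-fold were called. DESeq2 1.42.0 (the tool of the study), other scalings and filters, glmTreat and each library left out were alternatives. The fit was tested on simulated data.

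Members and lists were chosen with earlier results of these data known. Named genes were the members, the rest of both families, called genes of transporter and partner lists, the 2 markers with the most counts per cell type and the 2 genes most like each member. Slc4a2, Slc4a11, Kcnj10, Itpr1, Slc17a8, Lhx3 and Cib2 were named after their values were seen. Slc4a1 was in both the transporter and red blood cell lists. The Schwann cell list is not reported here. Floors cover counting error only. Promoters came from RefSeq (GRCr8).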

Additional observations from a re-analysis of the deposited data

How the results depend on the processing

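Car12 kept its call in all 14 alternatives and Car8 in 13 of 14. With glmTreat the log2-Fold change of Car8 was -1.39 with Padj 0.0899, 1 member was called in place of 2, 1 gene of the transporter and partner lists in place of 4, and 453 genes in all (354 lower, 99 higher) in place of 1394. With the adjusted p alone, 14 genes of these lists and 2778 genes in all (1646 lower, 1132 higher) were called. With library size alone, where the median of all genes was 0.13, 762 higher genes were called in place of 444, and Aqp1 passed at 0.92, as it did without the filter at 0.81. Log2-Fold changes near 0 changed sign, with library size alone by no more than the shift of the median. That of Car13 was 0.017 with upper quartile scaling and 0.093 with library size alone, and from -0.19 to 0.078 with a library left out, with 0.05 when control replicate 1 was omitted, 0.078 when it was IDPN-4wk replicate 2 and 0.03 when it was IDPN-4wk replicate 3. That of Aqp4 was from -0.0795 to 0.19 with a library left out, with -0.06 when IDPN-4wk replicate 1 was omitted and -0.0795 when it was replicate 3. With a library left out, log2-Fold changes ranged from -0.60 to -0.26 for Car2, from -0.70 to -0.22 for Car14 and from 0.55 to 1.39 for Aqp1, and 4 members were called without control replicate 1, where Car2 and Aqp1 passed. The number of members called was otherwise from 2 to 3. The cause of these changes was not tested. Slc9a9 was called in all 14 alternatives and Slc4a4 and Dmd in 13 of 14. Aqp5 had 57 counts in all libraries together, and a difference was not detectable at this depth. The labels give no pairs of control and exposed rats, so no paired analysis was made.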
